A study of Homo sapiens with 36 samples.

Results

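The 10 genes described here, ICAM1, CXCL8, CXCL1, NFKB1, NFKB2, RELB, NFKBIA, TNFAIP3, BIRC3 and TRAF1, are known targets of the transcription factor NF-kB. They were picked by name from the 62757 genes counted, in part because ICAM1 had been seen to be higher after oxaliplatin (OXPT) in these same libraries. OXPT differences of the 10 genes are therefore given as a description, with no test, and the tests below concern genotype, HDAC4 silencing and the compound #11. The libraries are poly(A) RNA-seq of HCT-116, a human colorectal carcinoma cell line, in 8 groups of 3. In the wild-type line (WT), 3 libraries were untreated and 3 received 50 µM OXPT, a platinum drug that crosslinks DNA, for the last 24 h. The other 18 came from an FBXW7-/- derivative (KO), which lacks the substrate receptor of an SCF ubiquitin ligase. KO cells were transfected for 48 h with a control esiRNA (esiCT), with an esiRNA pool against HDAC4 (esiHDAC4), or with esiCT together with #11, a PROTAC that sends class IIa histone deacetylases, HDAC4 among them and not HDAC4 alone, to the proteasome. Each of these 3 arms was untreated or received OXPT. The labels put #11 at 1 µM in the treatment entry and at 10 µM in the description, and the titles of the WT libraries name the control siRNA while their treatment entry names esiHDAC4, so the esiRNA of the WT cells is not settled. No label says that the 3 libraries of a group were separate cultures, and p-values measure only the spread between them.

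NF-kB dimers are built from the subunits NFKB1 (p105, processed to p50), NFKB2 (p100, processed to p52), RELA, RELB and REL. In resting cells IkB proteins such as the NFKBIA product IkBα hold the dimers in the cytoplasm, and IkB kinase releases them after cytokines or DNA damage. Many targets feed back on the pathway: NFKBIA recaptures the dimers, TNFAIP3 (A20) edits ubiquitin chains on upstream adaptors, NFKB2 and RELB form the non-canonical dimer, and BIRC3 and TRAF1 act at TNF receptors. CXCL8 (interleukin-8) and CXCL1 attract neutrophils, and ICAM1 is the surface ligand of leukocyte integrins.

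In the GENCODE annotation of GRCh38, CXCL8 (ENSG00000169429.12, chr4:73740519-73743716), CXCL1 (ENSG00000163739.5, chr4:73869393-73871308) and NFKB1 (ENSG00000109320.14, chr4:102501330-102617302) lie on the forward strand of chromosome 4. ICAM1 (ENSG00000090339.9, chr19:10271093-10286615) and RELB (ENSG00000104856.15, chr19:45001461-45038192) lie on the forward strand of chromosome 19. NFKB2 (ENSG00000077150.21, chr10:102394110-102402524), TNFAIP3 (ENSG00000118503.17, chr6:137867214-137883314) and BIRC3 (ENSG00000023445.16, chr11:102317484-102339403) are also forward genes, and NFKBIA (ENSG00000100906.12, chr14:35401079-35404749) and TRAF1 (ENSG00000056558.11, chr9:120902393-120929173) are on the reverse strand. Counts cover all annotated exons, untranslated regions included.

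The reference promoters of these genes are shown because the members are grouped by a factor that binds such sequences. RefSeq start-site windows on GRCh38.p14, 250 bases before and 50 after the start, gave 14 windows for the members, with several starts for NFKB1, NFKB2 and TRAF1. No RELB window was matched. The palindrome GGAANTTCC was present on either strand in 0.965% of 35116 such windows, and the 10-base kB consensus, which overlaps it, in 5.91%. Both strands were searched. At least 1 window of ICAM1, CXCL8, CXCL1, NFKB1 and NFKBIA held GGAANTTCC, starting 186, 91, 78, 48 and 81 bases before the start site. The kB consensus was found in CXCL1, NFKB1, NFKB2, NFKBIA, TNFAIP3 and BIRC3. The kB consensus lay in the NFKB2 windows of later start sites, inside the annotated gene, which are not printed. Neither was found in the 3 TRAF1 windows. Bases upstream of the first annotated exon are printed 5′ to 3′ on the gene strand, whole for ICAM1, CXCL8, CXCL1 and NFKBIA and as the stretch around the matches for NFKB1, TNFAIP3 and BIRC3. Capitals mark either motif.
ICAM1 (chr19:10270870-10271092, + strand): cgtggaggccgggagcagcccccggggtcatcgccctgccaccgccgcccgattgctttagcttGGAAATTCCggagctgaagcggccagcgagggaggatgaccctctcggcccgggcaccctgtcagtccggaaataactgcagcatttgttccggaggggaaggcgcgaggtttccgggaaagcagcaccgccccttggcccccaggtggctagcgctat
CXCL8 (chr4:73740319-73740518, + strand): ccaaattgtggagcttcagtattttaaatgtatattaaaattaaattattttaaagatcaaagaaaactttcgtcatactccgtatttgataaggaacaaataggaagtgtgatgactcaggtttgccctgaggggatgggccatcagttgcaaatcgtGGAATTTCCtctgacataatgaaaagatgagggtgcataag
CXCL1 (chr4:73869143-73869392, + strand): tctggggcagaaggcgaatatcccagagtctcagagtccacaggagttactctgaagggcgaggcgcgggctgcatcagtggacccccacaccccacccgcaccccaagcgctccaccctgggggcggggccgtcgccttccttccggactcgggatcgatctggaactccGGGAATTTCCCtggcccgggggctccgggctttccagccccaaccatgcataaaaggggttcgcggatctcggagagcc
NFKBIA (chr14:35404750-35404999, - strand): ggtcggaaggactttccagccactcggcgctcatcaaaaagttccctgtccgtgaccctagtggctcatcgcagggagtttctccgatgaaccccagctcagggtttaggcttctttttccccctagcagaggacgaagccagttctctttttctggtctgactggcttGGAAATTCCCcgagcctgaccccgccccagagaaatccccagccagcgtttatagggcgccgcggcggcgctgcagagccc
NFKB1 (chr4:102501280-102501329, + strand): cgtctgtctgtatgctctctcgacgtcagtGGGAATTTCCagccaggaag
TNFAIP3 (chr6:137867162-137867213, + strand): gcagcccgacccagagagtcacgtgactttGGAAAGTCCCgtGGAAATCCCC
BIRC3 (chr11:102317255-102317388, + strand): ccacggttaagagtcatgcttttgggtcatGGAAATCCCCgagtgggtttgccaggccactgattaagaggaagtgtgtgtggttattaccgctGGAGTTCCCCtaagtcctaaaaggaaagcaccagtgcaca
In ICAM1 the match stands farther from the start than in CXCL8, CXCL1 and NFKBIA. A match is a description of letters, not evidence of binding in these cells.

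Depth was 10725966 to 20527222 counts on genes per library. FBXW7 transcript lay at 15.3 to 17.9 CPM (counts scaled to the library total after TMM adjustment) in KO esiCT untreated libraries and at 16.8 to 23.3 in WT untreated ones, so transcript level does not by itself tell the genotypes apart. HDAC4 lay at 8.73 to 14.8 CPM with esiHDAC4 against 13.9 to 24.7 with esiCT in untreated KO cells, and at 3.30 to 4.16 against 5.67 to 7.44 under OXPT. With #11, which acts on proteins, HDAC4 transcript lay at 21.4 to 26.6 CPM untreated and 14.4 to 18.4 CPM with OXPT. Of 9 epithelial markers, EPCAM (215 to 360 CPM), CDH1 (43.4 to 113), KRT8 (2004 to 10288), KRT18, KRT19 and the intestinal factor CDX2 (19.5 to 60.3) were present in all 24 libraries, the intestinal keratin KRT20 lay at 0.329 to 3.82 CPM, and the intestinal markers VIL1 and CDX1 stayed under 1 CPM. Of the markers of other cell types, 6 of 7 leukocyte genes (not ITGAM, which reached 2.59 CPM), 4 of 5 endothelial genes (not VWF, which reached 2.15 CPM) and 3 of 6 fibroblast genes stayed under 1 CPM in every library, and the fibroblast collagen COL1A1 lay at 25.1 to 77.6 CPM. Marker sums moved with OXPT. In KO esiCT cells the epithelial markers summed to 5411 to 8447 CPM untreated and 9450 to 21603 with OXPT, the leukocyte markers to 0.396 to 0.869 and 1.31 to 1.47, the fibroblast markers to 29.2 to 42.7 and 36.5 to 78.0, and the endothelial markers to 0.682 to 1.78 and 0.343 to 0.833. With esiHDAC4 the fibroblast sum was 28.7 to 43.6 CPM untreated and 51.5 to 66.8 CPM with OXPT. Their part in the results below was not tested. WT untreated library 3 stood apart, with the lowest median correlation to its group mates (0.862), and results that rest on it are given with and without it. KO esiCT OXPT library 3 had 22.3% unmapped reads, the highest share.

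Per kilobase of exon, NFKB2 was the most abundant member, with group means of 23.4 to 54.5 CPM per kb. NFKBIA followed with a median group mean of 14.3 and RELB at 4.37 to 14.8 CPM per kb. The chemokines were lower, CXCL1 at 1.29 to 14.3 and CXCL8 at 0.500 to 4.81 CPM per kb, and ICAM1 lay at 1.04 to 3.87. NFKB1 was at 1.32 to 2.65 CPM per kb over the 15679 bases of all its annotated exons. TNFAIP3, BIRC3 and TRAF1 had group means at or under 1.27 CPM per kb. Of the 10 genes, 9 reached a mean of 64 counts in at least 1 group and entered the fit of 12356 genes, TNFAIP3 only through 3 OXPT groups and CXCL8 and CXCL1 through 4 groups each, in which #11 untreated is included and KO esiCT untreated is not. TRAF1, an adaptor of TNF receptors, had group means of 28.0 to 49.3 counts and was not tested. Reads that fit CXCL1 and its close paralogs CXCL2 and CXCL3 equally well cannot be placed, so the level of CXCL1 is uncertain.

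ICAM1 was higher with OXPT in WT and in KO cells with either esiRNA. In KO esiCT cells its level was 2.73, 3.78 and 6.07 CPM untreated (libraries 1, 2 and 3) and 9.47, 9.47 and 5.00 CPM under OXPT. Library 3 alone kept the groups from separating. The log2 difference was 0.94 ± 0.40 (SE, n = 3 against 3). In bulk RNA, a change in the number of cells that express a gene and a change in RNA per cell cannot be told apart. With esiHDAC4 the untreated libraries were at 3.44, 2.97 and 4.37 CPM and the OXPT libraries at 8.69, 10.7 and 14.8 CPM. These groups did not overlap, with a log2 difference of 1.66 ± 0.40. WT cells had 5.13, 4.28 and 11.9 CPM untreated and 7.30, 15.7 and 17.0 CPM with OXPT, a log2 difference of 0.91 ± 0.39, or 1.51 ± 0.39 without untreated library 3. With #11 the untreated level was already 7.25, 7.55 and 11.0 CPM, and OXPT libraries lay at 11.6, 12.3 and 12.1 CPM. The log2 difference in #11 cells was the smallest of the 4, 0.48 ± 0.39, and the groups did not overlap.

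The ICAM1 value depended on how reads in shared exons were counted. ICAM1 lies on chromosome 19 from 10271093 to 10286615 on the forward strand (GRCh38), and 815 of its exon bases (23.6%) are shared with the antisense transcript ICAM4-AS1. Reads in shared bases are dropped from the unstranded count used here, while the sum of the 2 strand columns keeps them. Because these libraries carried near-equal counts on both strands, the sum credits such a read to ICAM1 and ICAM4-AS1 alike. Which gene the added reads came from cannot be told. The dropped share of the summed ICAM1 count was 40.2% to 56.0% in 23 libraries and 83.4% in KO esiCT OXPT library 3. On the summed scale KO esiCT cells had 4.50, 5.63 and 8.49 CPM untreated and 18.4, 18.6 and 22.8 CPM with OXPT, and the groups no longer overlapped. The log2 OXPT difference was then 1.68 ± 0.35 in KO esiCT, 1.78 ± 0.35 in KO esiHDAC4, 0.98 ± 0.34 in WT and 0.54 ± 0.34 in #11 cells. The WT value rests on untreated library 3. WT cells had 7.44, 6.71 and 21.0 CPM untreated and 15.4, 24.8 and 28.9 CPM with OXPT, and that library alone kept these groups from separating. On this scale the order of group means was WT OXPT (23.0 ± 6.89 CPM, SD), KO esiCT OXPT (19.9 ± 2.45), KO esiHDAC4 OXPT (19.9 ± 3.14), #11 OXPT (19.5 ± 1.62), #11 untreated (13.4 ± 1.86), WT untreated (11.7 ± 8.06), KO esiCT untreated (6.20 ± 2.06) and KO esiHDAC4 untreated (5.78 ± 0.602). The 4 OXPT groups overlapped each other, as did the last 2, and WT untreated spanned from 6.71 to 21.0 CPM.

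**Figure D1:**
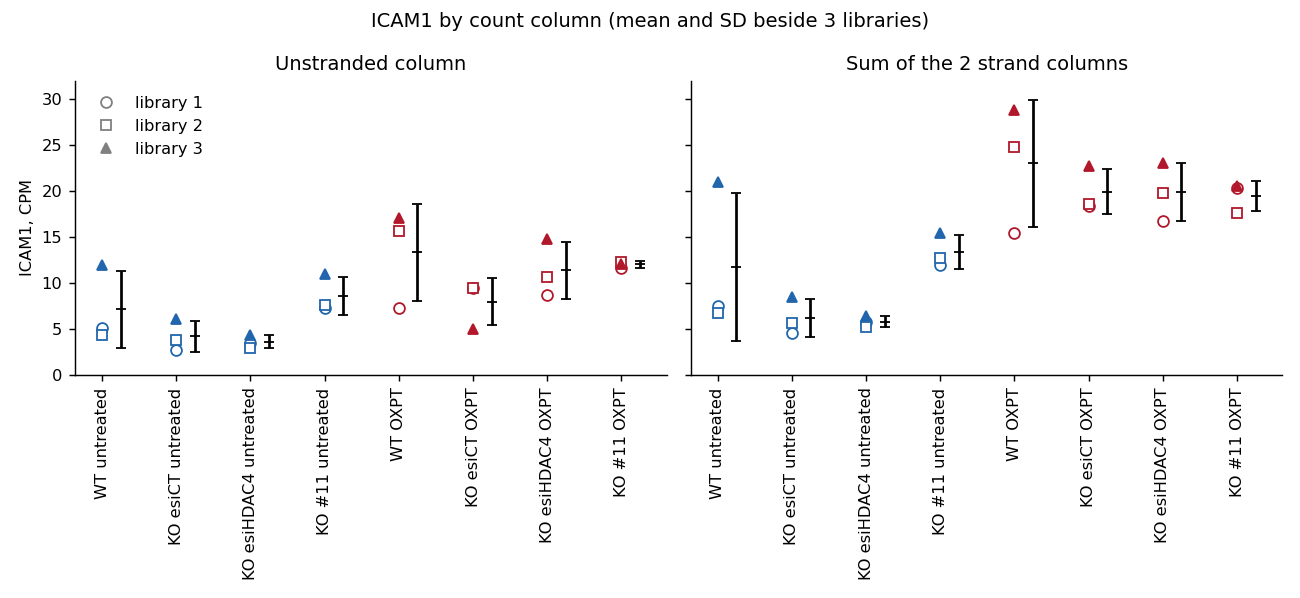
ICAM1 level in CPM (axis from 0) in 24 libraries from the unstranded count column (left) and from the sum of both strand columns (right), with mean and SD of 3 libraries beside the points. KO esiCT OXPT library 3 is at 5.00 CPM on the left and at 22.8 CPM on the right.

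Among the chemokines, CXCL8 in KO esiCT cells was at 1.02, 0.682 and 2.18 CPM untreated and at 3.38, 1.95 and 5.48 CPM with OXPT, a log2 difference of 1.45 ± 1.01 with overlapping groups. With esiHDAC4 it was at 1.54, 1.18 and 2.74 CPM against 6.62, 3.33 and 9.04 CPM under OXPT, without overlap (1.81 ± 0.98). CXCL8 in #11 cells ran the other way in libraries 1 and 2. It was at 9.40, 8.68 and 10.8 CPM untreated and at 1.41, 2.09 and 10.5 CPM with OXPT, a log2 difference of -1.04 ± 0.93. WT cells gave 1.28, 2.69 and 33.4 CPM untreated and 1.84, 2.88 and 14.6 CPM with OXPT (-0.94 ± 0.92, or 1.67 ± 0.86 without untreated library 3). CXCL1 differed with OXPT by 1.17 ± 1.13, 1.86 ± 1.10 and 0.28 ± 1.06 log2 units in KO esiCT, KO esiHDAC4 and #11 cells. In WT cells CXCL1 was at 0.481, 0.792 and 57.2 CPM untreated and at 1.51, 2.21 and 5.19 CPM with OXPT, so the log2 difference of -2.71 ± 1.11 became 2.17 ± 0.82 without that library.

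Of the subunits, NFKB2 and RELB were higher with OXPT in KO cells with either esiRNA, and NFKB1 was not. NFKB2 was at 115, 132 and 163 CPM untreated and at 187, 235 and 274 CPM with OXPT in KO esiCT cells, with no overlap (0.77 ± 0.43). RELB was at 12.9, 14.1 and 22.6 CPM against 28.6, 36.1 and 40.8 CPM, also without overlap (1.09 ± 0.54). With esiHDAC4 the log2 differences were 0.96 ± 0.43 for NFKB2 and 1.57 ± 0.55 for RELB, and with #11 they were 0.11 ± 0.43 and 0.13 ± 0.54. In WT cells the values of -0.23 ± 0.43 for NFKB2 and -0.16 ± 0.54 for RELB turned to 0.97 ± 0.28 and 1.40 ± 0.40 without untreated library 3. NFKB1 was at 31.9, 40.0 and 28.0 CPM untreated and 31.7, 32.4 and 26.4 CPM with OXPT in KO esiCT cells (-0.14 ± 0.22). Only in #11 cells did NFKB1 groups separate, at 46.0, 49.7 and 28.8 CPM untreated and 27.0, 25.5 and 25.7 CPM with OXPT (-0.67 ± 0.22).

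The inhibitors NFKBIA and TNFAIP3 had overlapping groups in KO esiCT cells. NFKBIA differed with OXPT by 0.58 ± 0.51 in KO esiCT, 0.77 ± 0.51 in KO esiHDAC4 and 0.33 ± 0.51 log2 units in #11 cells. In WT cells NFKBIA was at 27.6, 31.5 and 139 CPM untreated and 35.7, 38.0 and 86.9 CPM with OXPT (-0.30 ± 0.51, or 0.87 ± 0.44 without untreated library 3). TNFAIP3, at 1.44 to 10.5 CPM in all libraries, differed by 0.56 ± 0.44, 0.91 ± 0.44, 0.06 ± 0.44 and 0.93 ± 0.44 in KO esiCT, KO esiHDAC4, #11 and WT cells. The survival gene BIRC3 (cIAP2, a ubiquitin ligase at TNF receptors) was at 3.69, 1.68 and 3.76 CPM untreated and 7.80, 7.44 and 4.29 CPM with OXPT in KO esiCT cells, without overlap. Its log2 OXPT differences were 1.11 ± 0.46, 1.17 ± 0.45, 0.82 ± 0.47 and 0.32 ± 0.45 in the same 4 arms. TRAF1 was at 1.04 to 6.81 CPM in all libraries, and its groups separated only with esiHDAC4 (1.64, 1.74 and 1.56 CPM against 2.43, 2.85 and 2.71 CPM).

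Counted over the 9 genes in the fit, groups did not overlap and were higher with OXPT for 3 genes in KO esiCT, 7 in KO esiHDAC4, 2 in #11 and 0 in WT cells, where 15.3%, 18.8%, 22.4% and 11.5% of all genes tested did so. In #11 cells 1 member was lower without overlap, beside 20.1% of all genes. The rule used this contrast, and nothing is read from these counts. The median log2 difference of the 9 genes was 0.94, 1.17, 0.13 and -0.23, beside 0.01, 0.02, -0.00 and -0.06 over all genes. Without WT untreated library 3 the WT median was 0.97.

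**Figure D2:**
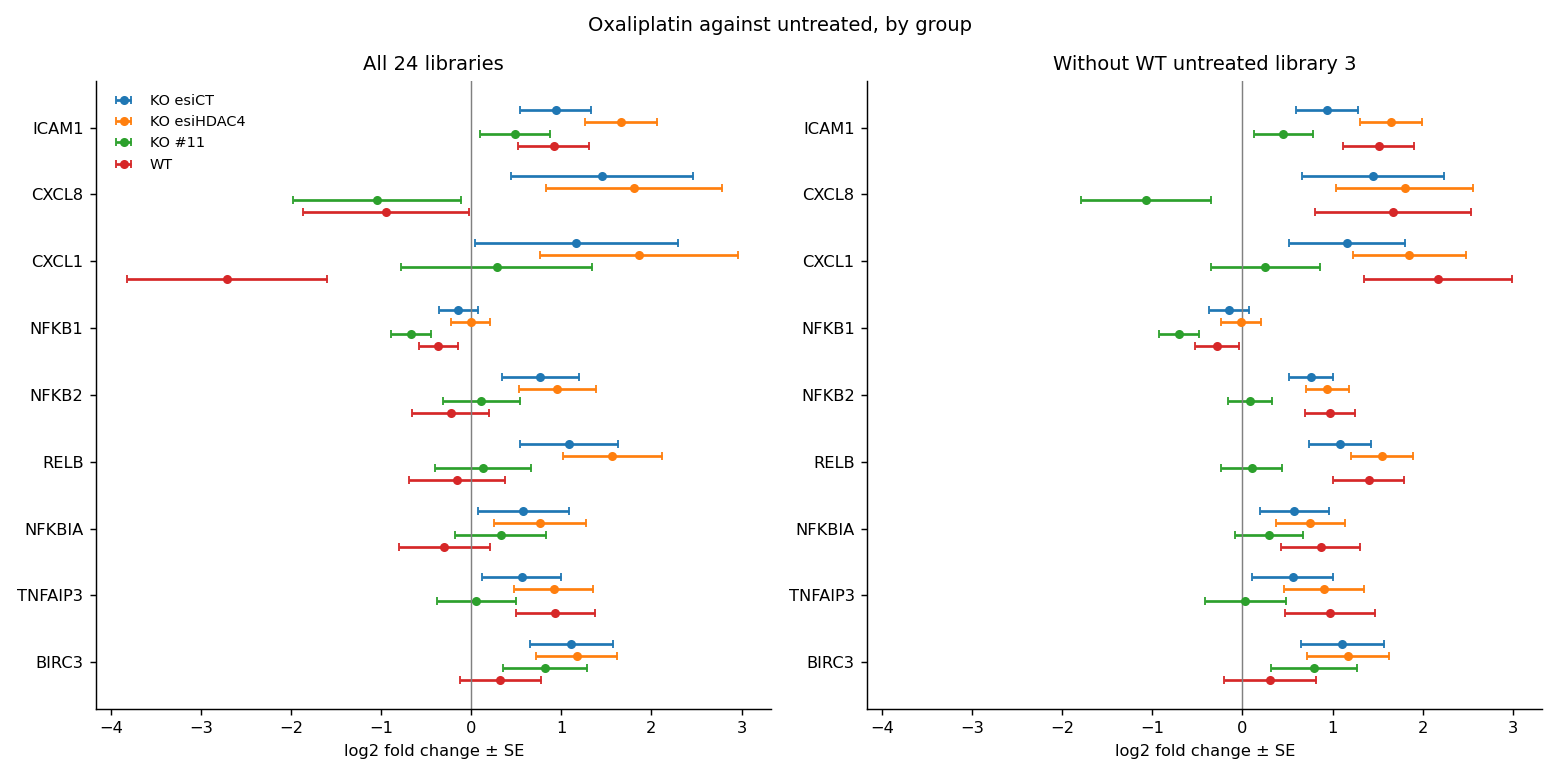
Log2 fold change (OXPT against untreated, point, with its SE as the bar) of the 9 genes in the fit for the 4 arms, from all 24 libraries (left) and without WT untreated library 3 (right). In WT cells CXCL1 moves from -2.71 on the left to 2.17 on the right.

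The libraries numbered 3 carried higher levels of several members across groups. Library 3 was the highest of its group in 8 of 8 groups for CXCL8 and CXCL1, where 1.97% of all genes tested were so, and in 7 of 8 for NFKB2, RELB and NFKBIA, where 8.19% of genes were so in at least 7. ICAM1 was highest there in 6 groups, TNFAIP3 in 5, BIRC3 and TRAF1 in 4, and NFKB1 in 1. The excess was largest in untreated WT cells, where library 3 was above the mean of libraries 1 and 2 by 6.28 log2 units for CXCL1, 4.0 for CXCL8, 2.75 for RELB, 2.28 for NFKB2, 2.23 for NFKBIA and 1.33 for ICAM1. For NFKB1 (0.24), TNFAIP3 (0.14) and BIRC3 (-0.02) its level was within 0.25 log2 units of that mean, although libraries 1 and 2 themselves lay apart, with TNFAIP3 at 1.44 and 5.55 CPM and 3.85 CPM in library 3. Among all genes tested, 0.0162% had a larger excess than CXCL1 and 38.8% a larger one than NFKB1. What sets these libraries apart was not tested, and the labels do not say whether a number marks a shared day or batch.

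In untreated KO cells, #11 went with higher levels of CXCL8, ICAM1, CXCL1 and RELB, although none was called (adjusted p below 0.05 and over 1.5-fold, edgeR quasi-likelihood) in the fit of all 24 libraries. For CXCL8 the levels with #11 of 9.40, 8.68 and 10.8 CPM stood above the esiCT levels of 1.02, 0.682 and 2.18 CPM, a log2 difference of 2.89 ± 1.02 (adjusted p = 0.18). ICAM1 with #11 (7.25, 7.55 and 11.0 CPM) was above esiCT (2.73, 3.78 and 6.07 CPM) in every library, with a log2 difference of 1.03 ± 0.40 (adjusted p = 0.23). CXCL1 (1.39 ± 1.11, adjusted p = 0.65) and RELB (0.90 ± 0.54, adjusted p = 0.50) were also without overlap. Such separation upward was seen for 4 of the 9 genes, beside 17.2% of all genes tested, and 0.51% of all genes were called. By edgeR 0 of the 9 genes was called and 2 had an unadjusted p under 0.05, and DESeq2 called 1, beside 3.31% of all genes. NFKBIA (0.53 ± 0.51), NFKB2 (0.33 ± 0.43), NFKB1 (0.32 ± 0.22), TNFAIP3 (0.17 ± 0.44) and BIRC3 (-0.28 ± 0.47) overlapped between #11 and esiCT. The median over the 9 genes was 0.53, beside -0.00 over all genes, and is no support for a shift, since low genes entered the fit through groups where they were high.

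Whether CXCL8 was called in this comparison differed between settings. It was called by DESeq2 (adjusted p = 0.040) and when only the 6 libraries compared were fitted (adjusted p = 0.0097), and over all 34 alternatives its adjusted p ran from 2e-08 to 0.54. In the fit of 6 libraries CXCL8 met the count minimum only through #11 (mean of 154 counts, 19.7 with esiCT), so that call is no support. With the library number as a block its adjusted p was 0.014 and 3.21% of all genes were called, although the numbers did not pair these libraries. Without WT untreated library 3 the differences were 2.89 ± 0.79 for CXCL8 (adjusted p = 0.052) and 1.04 ± 0.34 for ICAM1 (adjusted p = 0.11), 0 members were called, 4 had an unadjusted p under 0.05, and 2.73% of all genes were called. With the 8 libraries numbered 3 left out, a setting chosen after seeing the data, 14.5% of all genes were called, and 5 of the 9 members rose with #11: CXCL8 (3.41 ± 0.46, adjusted p = 0.00061), CXCL1 (1.93 ± 0.32, 0.0020), ICAM1 (1.19 ± 0.32, 0.023), RELB (1.12 ± 0.20, 0.0026) and NFKBIA (0.76 ± 0.17, 0.010). For these genes the highest adjusted p over the alternatives was 0.94 for CXCL1, 0.61 for ICAM1, 0.85 for RELB and 0.96 for NFKBIA. From summed strand columns ICAM1 differed by 1.11 ± 0.35 (adjusted p = 0.11), and it was called there when WT untreated library 3 was also left out. Under OXPT the genes did not separate #11 from esiCT in this way. CXCL8 differed by 0.39 ± 0.95 (adjusted p = 0.92) and RELB by -0.06 ± 0.54 (adjusted p = 0.98), and 0 members were called by edgeR, with 0 at an unadjusted p under 0.05, and 0 by DESeq2, beside 0.121% and 1.02% of all genes. The sign for CXCL8 rested on library 3. Libraries 1 and 2 had means of 1.75 CPM with #11 and 2.67 CPM with esiCT, and 33 alternatives ran from -1.01 to 0.81. No alternative called a member there, and the lowest adjusted p was 0.078, for NFKBIA without the libraries numbered 3 (edgeR). ICAM1 under OXPT (0.58 ± 0.39, adjusted p = 0.64) was without overlap, beside 9.46% of all genes, but differed by -0.03 ± 0.34 when both strand columns were summed.

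Between esiHDAC4 and esiCT the groups overlapped for every tested member but NFKB1. NFKB1 was at 15.3, 24.6 and 22.3 CPM with esiHDAC4 and at 31.9, 40.0 and 28.0 CPM with esiCT in untreated cells, with no overlap. The log2 difference was -0.68 ± 0.22 (adjusted p = 0.83). Under OXPT NFKB1 was at 20.2, 20.6 and 21.1 CPM against 31.7, 32.4 and 26.4 CPM, again with no overlap (-0.55 ± 0.22, adjusted p = 1). Neither was called, and over 35 alternatives the adjusted p ran from 0.12 to 1 and from 0.51 to 1. Of all genes tested, 12.1% and 2.51% were lower without overlap in these comparisons, and 0.00809% and 0% were called (0.324% and 0.0728% by DESeq2). The 2 comparisons share no library, but same-numbered untreated and OXPT libraries deviated together. Their r was 0.33 to 0.61 with esiCT and 0.20 to 0.68 with esiHDAC4, so the 2 comparisons are not shown to be independent. Same-numbered esiHDAC4 and esiCT libraries deviated together too, with r of 0.28 to 0.79 untreated and 0.71 to 0.77 under OXPT. The overlaps above take no account of this pairing, and with the library number as a block no member was called. No member was called by edgeR or DESeq2 in either, with 1 member at an unadjusted p under 0.05 in each by both tools. ICAM1 differed by -0.23 ± 0.40 untreated (adjusted p = 1.00) and by 0.50 ± 0.39 under OXPT (adjusted p = 1), the latter -0.00 ± 0.34 from summed strand columns.

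**Figure D3:**
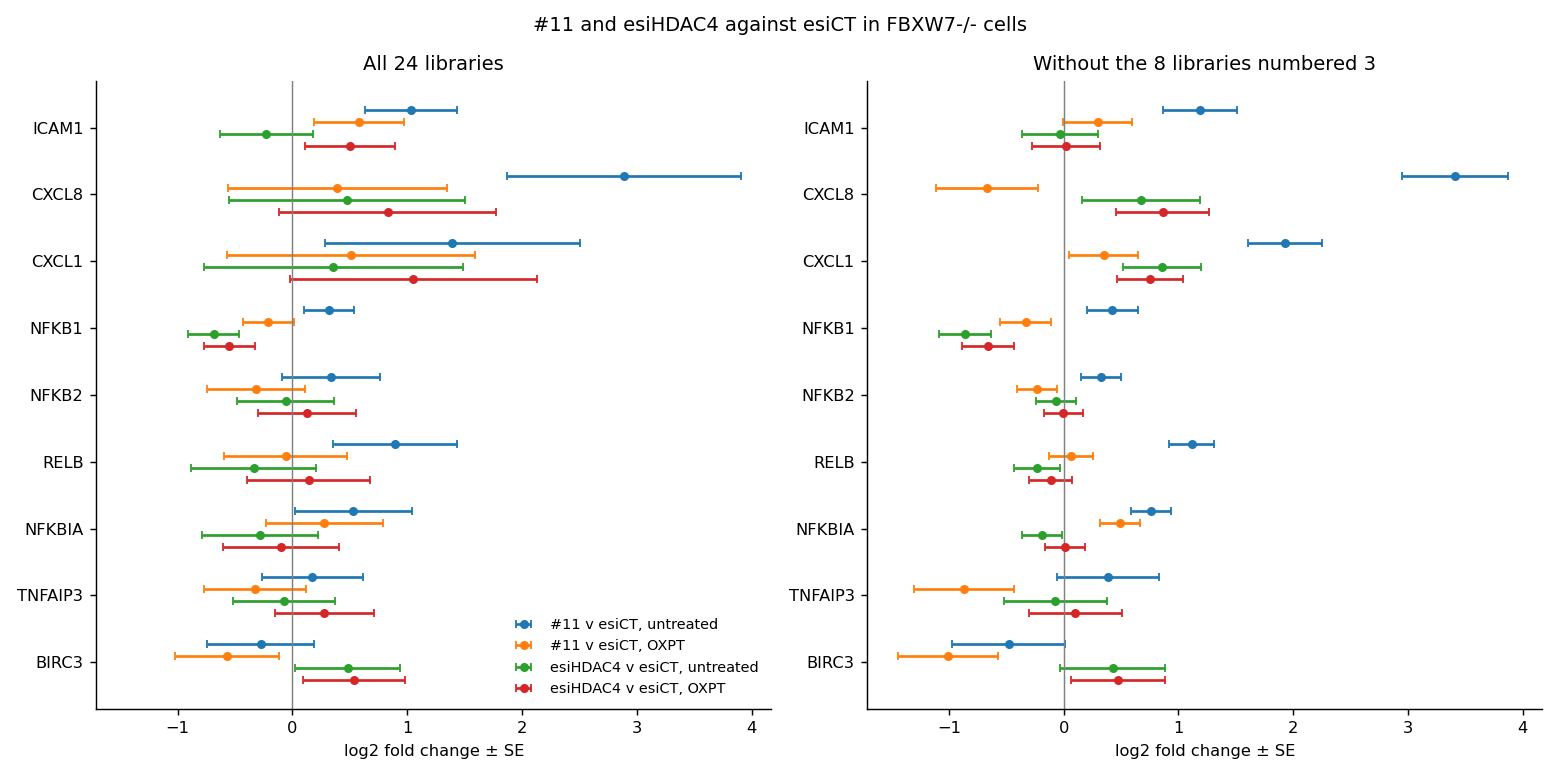
Log2 fold change (point, with its SE as the bar) of the 9 genes for #11 and for esiHDAC4 against esiCT in KO cells, untreated and with OXPT, from all 24 libraries (left) and without the 8 libraries numbered 3 (right). CXCL8 with #11 in untreated cells lies farthest right in both panels, at 2.89 and 3.41, and NFKB1 with esiHDAC4 lies below 0 in both.

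The largest differences between KO esiCT and WT cells rested on WT untreated library 3. In untreated cells CXCL8 differed by -3.24 ± 1.03 (adjusted p = 0.37), CXCL1 by -3.46 ± 1.16 (0.46), RELB by -1.42 ± 0.55 (0.60) and NFKB2 by -1.16 ± 0.43 (0.57), KO minus WT, all with overlapping groups (0 of 9 members separated, beside 6.4% of all genes). Without that library the values were -0.65 ± 0.88, 1.40 ± 0.83, 0.12 ± 0.38 and 0.03 ± 0.27. None of the 9 genes was called with edgeR, 4 had an unadjusted p under 0.05, and DESeq2 called 1 (CXCL8), beside 0.291% and 0.947% of all genes. Without that library 0 members were called and 0 had an unadjusted p under 0.05, beside 0.178%. Under OXPT the log2 differences were -0.85 ± 0.95 for CXCL8 and -0.73 ± 0.39 for ICAM1 (adjusted p = 1.00 and 0.96), or -0.21 ± 0.34 for ICAM1 from summed strand columns. By edgeR and by DESeq2 0 members were called there, 0 had an unadjusted p under 0.05, 0 separated without overlap (beside 6.39%), and 0.138% of all genes were called by edgeR and 0.243% by DESeq2. Genotype and the esiRNA named in the WT labels cannot be told apart in these comparisons.

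Whether the OXPT difference itself varied between arms was tested as an interaction. For CXCL8 the response in #11 cells was lower than in KO esiCT cells by 2.49 log2 units (-2.49 ± 1.38, adjusted p = 0.79), and without the libraries numbered 3 the value was -4.08 ± 0.64 (adjusted p = 0.0051, 1.95% of all genes called). Its adjusted p over 34 alternatives ran from 0.0051 to 1.00. The interaction contains the OXPT values that the choice of genes drew on, and CXCL8, CXCL1 and TNFAIP3 entered the fit through groups where they were high, so no direction is read from the 9 estimates together, which ran from -2.49 for CXCL8 to -0.25 for NFKBIA. ICAM1 had -0.45 ± 0.55, or -1.14 ± 0.48 from summed strand columns, given as a description, since its rise with OXPT was used in the choice. The #11 response and the #11 difference in untreated cells share the untreated libraries. Between KO esiHDAC4 and KO esiCT the 9 estimates lay between 0.06 and 0.73, with 0 called and 0 at an unadjusted p under 0.05 by edgeR, and 0 called by DESeq2. Between KO esiCT and WT the largest was CXCL1 (3.88 ± 1.58, adjusted p = 1.00), which was -1.01 ± 1.03 without WT untreated library 3. No gene of the 12356 was called in these 3 interactions with edgeR, while 201, 19 and 863 genes (KO esiCT against WT, esiHDAC4 against esiCT, #11 against esiCT) had an unadjusted p under 0.05, and DESeq2 called 0, 0 and 36 (0.291% in the last).

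Of 66 other NF-kB pathway genes, 47 reached the count minimum. All 5 IkB inhibitors and all 8 kinases were among them, but only 4 of 15 cytokines and chemokines, and 8 of those 15 stayed under 1 CPM in every library. OXPT responses of these genes were tested with the same call. In KO esiCT cells 6 rose and 0 fell, in KO esiHDAC4 8 and 0, in #11 cells 5 and 0, and in WT cells 4 and 0. Of all genes 11.3%, 12%, 9.51% and 10.7% were called in these responses, counting both directions. The median log2 difference of the 47 genes was 0.29, 0.38, 0.23 and 0.15, beside 0.01, 0.02, -0.00 and -0.06 over all genes. The list was drawn up with earlier results of these data known, so no shift of the pathway is read from these counts or medians. In KO esiCT cells the death-domain adaptor PIDD1, a p53 target that links DNA damage to NEMO, rose from 45.7 ± 4.90 to 140 ± 31.8 CPM (SD, n = 3 each), by 1.62 ± 0.23 log2 units (adjusted p = 8.28e-05). PIDD1 also rose in KO esiHDAC4, #11 and WT cells by 1.52 ± 0.23, 2.16 ± 0.23 and 1.5 ± 0.23, and its call was lost in 1 alternative, WT fitted with only its own groups (adjusted p = 0.059).

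CFLAR, the caspase-8 inhibitor c-FLIP, rose by 1.13 ± 0.26 log2 units in KO esiCT cells (adjusted p = 0.0063) and by 1.18 ± 0.26 with esiHDAC4 (adjusted p = 0.0041). The macrophage growth factor CSF1 rose in all 4 arms, by 0.93 ± 0.29, 1.47 ± 0.30, 1.01 ± 0.29 and 1.25 ± 0.30 in KO esiCT, KO esiHDAC4, #11 and WT cells (adjusted p = 0.043, 0.0027, 0.029 and 0.0087). In KO esiCT cells the CSF1 call was lost in 20 of 34 alternatives, with adjusted p from 0.015 to 0.22. NFKBIE, which encodes IkBε, rose by 1.00 ± 0.31 in KO esiCT cells (adjusted p = 0.039, 0.0089 to 0.16 over the alternatives, 16 of 35 without the call) and by 1.03 ± 0.31 with esiHDAC4 (7 of 35 without it). IKBKB, the IKKβ kinase, rose by 0.60 ± 0.16, 0.63 ± 0.16 and 0.60 ± 0.16 in KO esiCT, KO esiHDAC4 and WT cells, just past the 1.5-fold limit, and these calls were lost in 15, 8 and 10 of 35 alternatives. TNFAIP2 rose by 0.70 ± 0.18 in KO esiCT cells, and MAP3K14, the NIK kinase that triggers NFKB2 processing, by 1.13 ± 0.32 with esiHDAC4 and 1.18 ± 0.32 in WT cells. The other genes that rose were TNIP1 and LIF with esiHDAC4 and TNIP1, TRADD and CD40 with #11, named after their values were seen. The TNIP1 call with #11 (0.89 ± 0.28, adjusted p = 0.046) was lost in 17 of 35 alternatives, with adjusted p up to 0.21. The calls of TNFAIP2, MAP3K14, LIF, CD40 and TNIP1 with esiHDAC4 were lost in 4 to 6 of 35 each, the CSF1 call with #11 in 7 of 34 and in WT cells in 3 of 34, the CFLAR call in KO esiCT cells in 2 of 35, and the TRADD call in 0 of 35. RELA was at 103 to 149 CPM in group means and differed by 0.22 to 0.38 log2 units with OXPT, with adjusted p from 0.28 to 0.58. With edgeR 0 of the 47 were called between genotypes, between esiHDAC4 and esiCT or between #11 and esiCT. In untreated cells 7, 3 and 10 of them had an unadjusted p under 0.05 in these comparisons and DESeq2 called 2, 0 and 2, and under OXPT 2, 0 and 1 had an unadjusted p under 0.05 and DESeq2 called 0 in each.

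The genes whose group means followed ICAM1 most closely were KLK8, DGAT2, ZCCHC3, RFXANK and TNFRSF10B, with Pearson's r of 0.992, 0.988, 0.988, 0.986 and 0.975 over the mean log2 CPM of 8 groups. The 8 points share libraries, treatment and depth, and r is given as a description, taken from 12356 genes. ICAM1 ran from 1.88 log2 CPM in KO esiHDAC4 untreated to 3.66 in WT OXPT. TNFRSF10B, the death receptor DR5 and a p53 target, ran from 6.51 in KO esiCT untreated to 8.02 in #11 OXPT cells, and stood at 7.73 in #11 untreated cells. KLK8, a secreted serine protease, ran from 2.32 to 3.30, and ZCCHC3 from 5.12 to 5.50. DGAT2, an enzyme of triglyceride synthesis, ran from 2.36 to 3.45, and RFXANK, a regulator of MHC class II genes, from 5.17 to 5.99. This order depended on the count column. From summed strand columns, an alternative chosen after seeing the data, DGAT2, RFXANK and TNFRSF10B ranked 5, 7 and 8 among 14138 genes (r of 0.983, 0.981 and 0.980), while KLK8 stood at rank 41 (0.964) and ZCCHC3 at rank 460 (0.898). The closest there was ANKRD24 (0.997), followed by ICAM4-AS1 (0.994), which shares exon bases with ICAM1. Of the members on the unstranded scale, RELB (0.928) and NFKBIA (0.867) were nearest, followed by NFKB2 (0.784), TNFAIP3 (0.740), CXCL1 (0.731), CXCL8 (0.676), BIRC3 (0.424) and NFKB1 (0.029). ICAM3 and ICAM5, beside ICAM1, did not match its range. ICAM3 stayed at or under 0.14 CPM, and ICAM5 lay at 24.9 to 68.5 CPM. ICAM4 had 0 CPM in all 24 libraries in the unstranded column. That column drops reads on bases shared with antisense genes, so the level of ICAM4 cannot be judged from it.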

How the data were processed

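Poly(A) RNA of 36 HCT-116 libraries was analysed from gene counts, of which 24 in 8 groups of 3 were used. The deposited counts are the authors' STAR gene tables with an unstranded, a forward and a reverse count column. The submitters' processing notes name Trimmomatic 0.39, STAR 2.7.11a and hg38, while for the annotation no source used here gives a name. The kit is labelled stranded, but reverse counts were 1.00 to 1.02 times forward counts in every library and 35.7% to 43.7% of reads fell on no gene in the reverse column against 2.58% to 5.79% in the unstranded one, so the unstranded column was used. This column drops reads on bases shared by genes of either strand (10.6% to 12.2% of reads). Gene names came from GENCODE on GRCh38 (62639 of 62757 IDs matched). A further 12 WT libraries were left out of all comparisons because their titles and treatment entries give opposite OXPT states.

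Genes with a mean of 64 counts in at least 1 group (12356) were fitted with edgeR 4.0.16 (R 4.3.3, TMM, glmQLFit, glmQLFTest), 1 coefficient per group over 24 libraries. Calls needed both an adjusted p (Benjamini-Hochberg, all genes) below 0.05 and a fold above 1.5, and each SE is the log2 fold change divided by the root of its F. The fit was run on simulated independent counts. These hold no link between same-numbered libraries and no library that stands apart, so they do not test the fit for those features. Of the 13 comparisons, 4 (OXPT) were described and 9 tested for the members, except that the interactions of ICAM1 are given as a description. Alternatives were the reverse counts, both filters, DESeq2 1.42.0, RLE scaling, a replicate block, only the groups compared and leaving out each library, and, chosen after seeing the data, the sum of both strand columns and leaving out libraries numbered 3. Same-numbered libraries deviated together (each r over 0.1, the minimum set) in 10 of 13 comparisons, from the titles' numbers, and not in the 3 that set #11 against esiCT. The members and the lists were chosen with earlier results of these data known. Genes named are the 10 members in every comparison, the called other pathway genes (the 4 highest and 4 lowest in the KO esiCT and WT OXPT responses), the 5 genes most like ICAM1 by Pearson's r, and neighbouring ICAM genes. The paper describes salmon and DESeq2, while these files have the STAR layout. Replicate libraries differed by more than sampling noise in every group.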

Additional observations from a re-analysis of the deposited data

Results flagged for a closer look

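CXCL8 was lower with OXPT in all 3 same-numbered pairs of #11 libraries, but the libraries numbered 3 were nearly equal. These stood at 10.8 CPM untreated and 10.5 CPM with OXPT. In KO esiCT libraries CXCL8 was higher with OXPT in all 3 pairs. The test of the difference between these responses gave -2.49 ± 1.38 log2 units (edgeR, adjusted p = 0.79), which does not pass the threshold.

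In the 12 WT libraries that the labels put in no group, the highest level exceeded that of the highest WT untreated library for 5 members, on a scale common to 36 libraries. ICAM1 reached 16.8 CPM against 11.7, NFKB1 50.2 against 44.3, RELB 106 against 101, TNFAIP3 14.7 against 5.42 and BIRC3 15.5 against 6.20. The highest of 12 libraries is set against the highest of 3, and a larger set can hold the top value without any difference. No group can be set for these libraries, no difference was tested, and nothing is read from this count.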

How the results depend on the processing

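For the OXPT responses, which were described and not tested for the members, 1192 of 1232 recomputed log2 differences moved by less than their SE (22 of these, near 0, changed sign) and 40 by more, of which 20 changed sign, all in WT cells and all without WT untreated library 3 or without the libraries numbered 3. The median log2 difference of the members in WT cells (-0.23) became 0.97 without WT untreated library 3, 0.67 without the libraries numbered 3, and 0.93 and 0.66 for the same from summed strand columns (-0.59 to 0.97 leaving out 1 library). In the other 3 arms no alternative moved the median by more than the median SE of the members. In the 9 tested comparisons 2664 of 2773 recomputed values stayed uncalled and moved by less than their SE (68 changed sign), 85 stayed uncalled and moved by more (45 changed sign) and 24 were called in the same direction.

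No member was called in the 9 tested comparisons with edgeR. Between #11 and esiCT untreated 1 (CXCL8) was called without the minimum, by DESeq2, with the replicate block and with only the groups compared. From summed columns without WT untreated library 3 the 1 called was ICAM1, and 5 were called without the libraries numbered 3 on either count. Between KO and WT untreated 4 were called without the minimum and 1 by DESeq2. In the KO by WT interaction 1 was called without the minimum, and in the #11 interaction 1 without the minimum and 1 without the libraries numbered 3 on either count. Leaving out 1 library called 0 members in each of these. The replicate block changed no other count of members called, and the cause of these moves was not tested. Same-numbered libraries in the 3 comparisons of #11 with esiCT correlated from -0.25 to 0.11 untreated, -0.23 to 0.13 with OXPT and -0.39 to 0.61 in the interaction.

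Calls over all genes ran from 553 to 2404 in KO esiCT (1398 as reported), 807 to 2496 in KO esiHDAC4 (1480), 555 to 3187 in #11 (1175) and 84 to 2897 in WT cells (1322) for OXPT. Between KO and WT they ran from 1 to 322 untreated (36) and 0 to 91 with OXPT (17), between esiHDAC4 and esiCT from 0 to 80 (1) and 0 to 9 (0), between #11 and esiCT from 0 to 1911 (63) and 0 to 1517 (15), and in the KO by WT, esiHDAC4 and #11 interactions from 0 to 24, 0 to 0 and 0 to 274 (0 each). Group means went down to 19.7 counts for CXCL8, 26.7 for CXCL1 and 28.0 for TRAF1, which limits the precision of these genes most.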

Other observations

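Some other NF-kB targets were also high in WT untreated library 3, named here after their values were seen. They were picked from 15 cytokines or chemokines and 14 other targets. How many of these, or of all genes, were as high there was not counted, so no rise of the targets in general is read from them. PLAU (urokinase) was at 249 CPM against 20.2 and 17.3 CPM in libraries 1 and 2. GADD45B, a stress-response gene, was at 187 CPM against 25.03 and 31.1 CPM. IER3 was at 653 CPM against 194 and 167 CPM, and the chemokine CCL20 at 8.30 CPM against 0.08 and 0.16 CPM. CXCL3, a paralog of CXCL1, was at 25.1 CPM against 1.04 and 0.85 CPM. SOD2 was not high there, at 62.9 CPM against 78.0 and 96.6 CPM.

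Over the 12 WT libraries in no group, CXCL8 had a median of 13.5 CPM (1.14 to 32.6), CXCL1 6.31 (1.62 to 37.4), NFKB2 285 (120 to 634), RELB 54.0 (13.8 to 106) and NFKBIA 73.0 (31.7 to 96.3).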
